A study of Homo sapiens with 2 samples.

Results

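The regions described here are Runx2 peaks that lay close to another Runx2 peak. They were chosen by their spacing in the deposited peak list: a peak on chromosomes 1 to 22 was taken when the gap to a neighbour on either side, from the end of one peak to the start of the next, was at most 100 kb. Peaks joined in this way were chained into groups. The rule took 472 of the 1443 peaks on chromosomes 1 to 22, and the whole list held 1603 peaks. The remaining autosomal peaks were 316 with no neighbour within 1 Mb, or 21.9%, and 655 whose nearest neighbour was over 100 kb but within 1 Mb away, or 45.4%.

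The peaks come from chromatin immunoprecipitation sequencing (ChIP-seq) of C4-2B cells, a bone-metastatic subline of the LNCaP prostate cancer cell line. The series holds 1 library labelled for Flag-tagged Runx2 and 1 library of input DNA, which is sequenced without immunoprecipitation. The antibody label reads Runx2 Flag tagged and does not say whether the antibody bound the tag or Runx2 itself. The labels give no treatment, dose or time for either library, and both were made from the same cell line. Where tagged protein was mapped, the list need not show where Runx2 without a tag would bind. With 1 library per group there was no spread between cultures to measure, and the depth is unknown.

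Runx2 is a DNA-binding protein of the Runt-domain family, which works with the partner CBFB, and it drives the formation of bone-making osteoblasts. Prostate cancer cells that spread to bone can express it. Sequence-specific factors often occupy several sites around one locus, and such sites may serve the same or different genes. Spacing alone does not show which genes are involved. The peaks lie on human genome build hg18. Genes and sequence of that build were not used here, so regions are named by chromosome and position only, and no bases are shown.

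The 472 grouped peaks were 32.7% of the peaks on chromosomes 1 to 22 (exact 95% binomial interval 30.3 to 35.2%) and fell into 204 groups. This share describes what the rule selected and was not tested. Most groups were pairs: 155 groups, or 76.0%, held 2 peaks. There were 36 groups of 3 peaks, 11 groups of 4 and 2 groups of 5. The groups together spanned 10.6 Mb, which is 0.391% of the 2702 Mb between the first and the last peak of the 22 chromosomes. The median span of a group was 47.5 kb (95% interval of the median 37.3 to 55.1 kb), and spans ran from 1.74 to 199.5 kb. Intervals throughout cover counting error only and treat peaks as independent, although peaks of a group are counted together, so they are too narrow.

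Inside the groups, short gaps were the most frequent. The 268 gaps had a median of 29.99 kb (95% interval of the median 25.04 to 38.4 kb), with quartiles at 11.5 and 63.1 kb. Gaps of at most 10 kb numbered 64, or 23.9% of those inside groups. They lay in 62 of the 204 groups, so 30.4% of groups held at least 1 such close pair. From 10 to 30 kb there were 35.0 gaps per 10 kb, and from 30 to 100 kb there were 19.1 per 10 kb. Beyond the limit of 100 kb the numbers went down gradually, with 14.8 gaps per 10 kb from 100 to 150 kb and 12.2 from 150 to 200 kb. The decline was steepest below 30 kb, and there was no step at 100 kb, so that limit divides a continuous range of spacings.

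**Figure D1:**
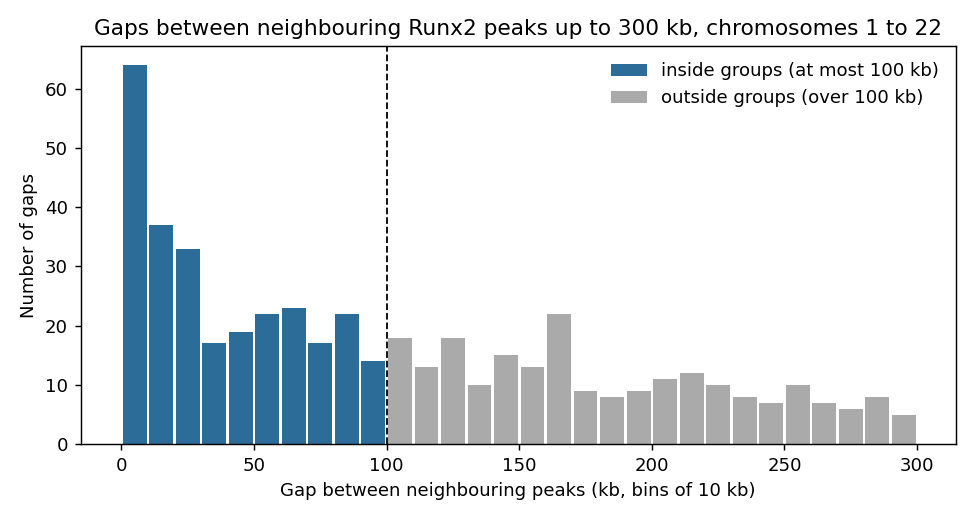
Number of gaps between neighbouring Runx2 peaks (vertical axis) against the length of the gap in kb (horizontal axis, bins of 10 kb) on chromosomes 1 to 22, up to 300 kb. The first bin holds 64 gaps; the last bin inside the limit of 100 kb (dashed line) holds 14 and the first bin beyond it holds 18.

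Regions next to the limit illustrate this. The 3 longest gaps still inside it measured 97.7 kb on chromosome 1, 99.5 kb on chromosome 8 and 99.8 kb on chromosome 5. The chromosome 5 gap joined a pair that spanned positions 1369253 to 1470035, the pair with the longest gap. The 3 shortest gaps outside it measured 103.3 kb on chromosome 4, 103.3 kb on chromosome 2 and 104.1 kb on chromosome 3. Each of these last gaps lay between 2 peaks that had no other neighbour within 100 kb.

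The 13 groups of 4 or 5 peaks held 54 peaks on 10 chromosomes. The group of 5 on chromosome 5 ran from 909123 to 1010933 and spanned 101.8 kb. Its gaps, in order along the chromosome, were 25.8, 64.8, 3.50 and 5.26 kb, so the last 3 peaks lay together and the other two stood apart. The group of 5 on chromosome 10 ran from 134212704 to 134367045 and spanned 154.3 kb. Its gaps were 4.69, 20.4, 40.4 and 86.3 kb, each longer than the one before. These 2 groups thus had a dense end on opposite sides.

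Among the groups of 4, the most compact lay on chromosome 12 from 119009362 to 119057211 and spanned 47.9 kb. Its gaps were 22.04, 4.76 and 19.1 kb. The next in span was on chromosome 19 from 18413754 to 18479407, with gaps of 45.4, 14.6 and 3.68 kb. Chromosome 19 carried another group of 4 from 61294887 to 61375329, with gaps of 49.9, 21.2 and 7.30 kb. Both chromosome 19 groups therefore became denser towards the higher positions. The group of 4 on chromosome 6, from 43923355 to 44000457, had gaps of 28.6, 9.95 and 36.5 kb.

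Of the wider groups of 4, the one on chromosome 3, from 196940074 to 197036464, held the shortest gap of all, 0.117 kb, between its last 2 peaks. Its other gaps were 75.0 and 19.3 kb. Because every listed peak is 500 bases wide, the list does not show whether these 2 peaks are separate sites. With peaks within 1 kb merged, this group had 3 members. Chromosome 4 had one group of 4 from 6970253 to 7097321, with gaps of 7.24, 44.9 and 72.9 kb. Its other group of 4, from 84253508 to 84372262, had gaps of 93.8, 2.58 and 20.4 kb. The first of these was dense at its lower end, and in the other the first peak stood apart from a trio.

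The group on chromosome 1 from 54467609 to 54587068 had gaps of 15.7, 4.12 and 97.7 kb, and it would hold 3 peaks at a slightly shorter limit. A group on chromosome 18 from 74462363 to 74599954 had gaps of 36.8, 5.98 and 92.8 kb. The widest group lay on chromosome 8 from 2657517 to 2857028 and spanned 199.5 kb, with gaps of 99.5, 86.7 and 11.3 kb. Another group on chromosome 1, from 238651423 to 238849248, spanned 197.8 kb with gaps of 93.5, 60.2 and 42.1 kb. It was the only one of the 13 without a gap of at most 12 kb. Of the 13 groups, 11 held a gap of at most 10 kb, and their smallest gap had a median of 4.76 kb. A smallest gap is taken from more gaps in a larger group than in a pair, so it is expected to be lower there; over single gaps, the medians were 33.9 kb in pairs, 29.7 kb in groups of 3, 22.04 kb in groups of 4 and 23.1 kb over the 8 gaps of the groups of 5.

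**Figure D2:**
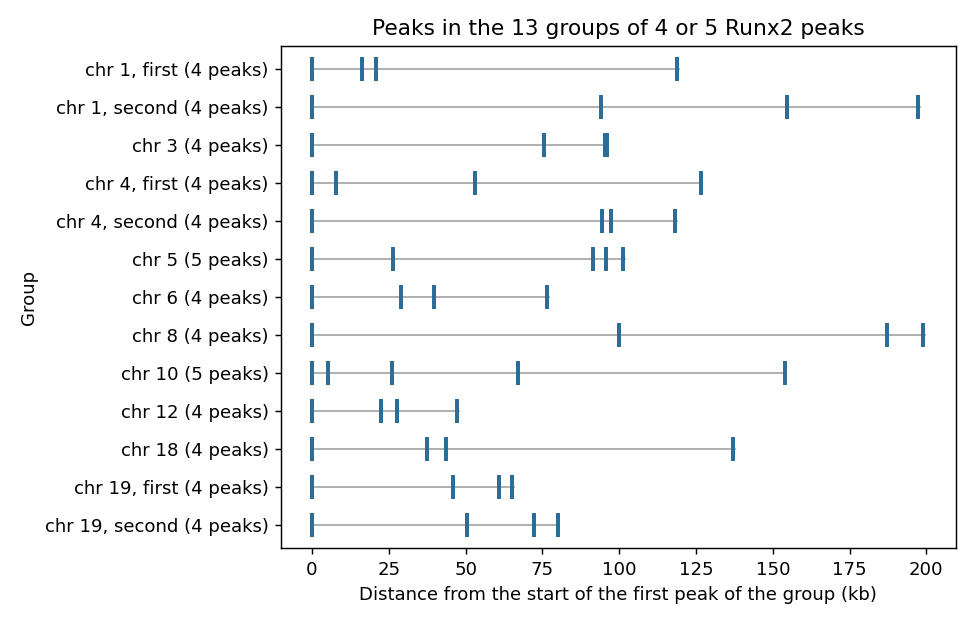
Position of each peak (blue ticks) in the 13 groups of 4 or 5 Runx2 peaks, as distance in kb from the start of the group's first peak (horizontal axis), with 1 group per line. In 12 of the 13 groups at least 2 peaks lie within 12 kb of each other, and spans range from 47.9 to 199.5 kb.

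Groups of 3 ranged from evenly spaced to strongly lopsided. The larger gap was 3.45 times the smaller at the median, between 1.01 and 154 times. The highest ratio came from a group on chromosome 2 whose smaller gap was 0.574 kb. With peaks within 1 kb merged, that group would be a pair. In 23 of the 36 groups the larger gap was at least 2 times the smaller, and in 9 it was at least 10 times, so that a close pair had the remaining peak at a distance. Ordering the gaps by size makes them look unequal in any case. Whether the ratios differ from those of unrelated gaps was not tested. The smaller gap had a median of 15.2 kb and the larger a median of 62.3 kb. The shortest group of 3 spanned 12.8 kb on chromosome 2 and had nearly equal gaps of 5.90 and 5.42 kb. The next shortest lay on chromosome 4 from 124728682 to 124750916, spanned 22.2 kb and had gaps of 18.8 and 1.89 kb.

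The others among the 5 shortest had the same order, with the smaller gap at the higher positions. On chromosome 16, from 69610441 to 69636093, the gaps were 18.5 and 5.61 kb. On chromosome 1, from 204775050 to 204803398, they were 22.2 and 4.61 kb. On chromosome 6, from 168364510 to 168394069, they were 26.6 and 1.48 kb. The widest group of 3 lay on chromosome 12 from 22125566 to 22295359. It spanned 169.8 kb, with gaps of 90.8 and 77.5 kb, and so held no close pair.

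**Figure D3:**
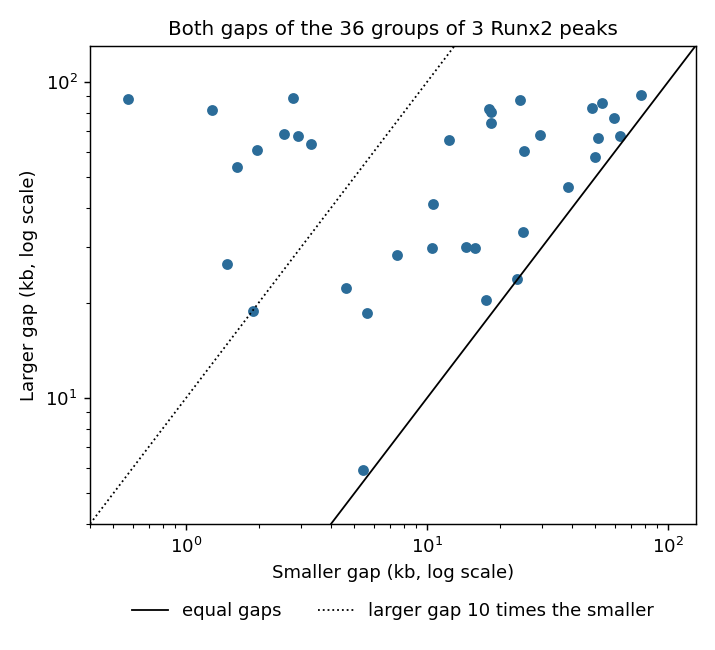
Larger gap (vertical axis, kb, log scale) against smaller gap (horizontal axis, kb, log scale) for each of the 36 groups of 3 Runx2 peaks. The points lie between the line of equal gaps and a ratio of 154, and 9 of them lie at or beyond the dotted line at 10 times.

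Pairs covered the whole range that the rule allows, from 0.738 to 99.8 kb, and 37 of the 155, or 23.9%, had a gap of at most 10 kb. The closest pair lay on chromosome 7 from 197769 to 199506. With peaks within 1 kb merged, it would be a single peak and no group. On chromosome 16, a pair from 70473978 to 70476203 was 1.23 kb apart, and another from 80741571 to 80744212 was 1.64 kb apart. The next were on chromosome 10 from 43778425 to 43781276, with a gap of 1.85 kb, and on chromosome 5 from 176230187 to 176233078, with a gap of 1.89 kb. The first chromosome 16 pair followed the compact group of 3 named above, and together they lay within 865.8 kb.

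Each of the 22 autosomes carried at least 2 groups. Chromosome 4 had the most, with 31 groups that held 70 of its 185 peaks, followed by chromosome 2 with 23 groups. Chromosomes 9, 14, 17, 18 and 22 had 2 groups each. As a share of the chromosome's own peaks, members ranged from 9.76% on chromosome 9, where 4 of 41 peaks were grouped (exact 95% interval 2.72 to 23.1%), to 59.1% on chromosome 21, where 13 of 22 were (36.4 to 79.3%). The intervals of these 2 chromosomes did not reach 32.7%, the share over all 22, and both were named after their values were seen. The intervals of the other 20 chromosomes included that share. This is no test: the grouped peaks of chromosomes 9 and 21 lay in only 2 and 6 groups, so their intervals are too narrow. With 22 chromosomes compared, some intervals can also miss the overall share by chance. Chromosome 4, despite its many groups, had a share of 37.8% (30.8 to 45.2%). A denser chromosome brings peaks closer together whatever their arrangement, and chromosomes 9 and 21 had 0.330 and 0.617 peaks per Mb between their first and last peak. Among the sparser chromosomes, chromosome 10 had 0.284 peaks per Mb and a share of 42.1%, and chromosome 14 had 0.283 and 21.7%. Among the denser chromosomes, chromosome 13 had 0.785 and 32.0%, and chromosome 19 had 0.843 and 42.3%. Whether density accounts for the differences in share was not tested.

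**Figure D4:**
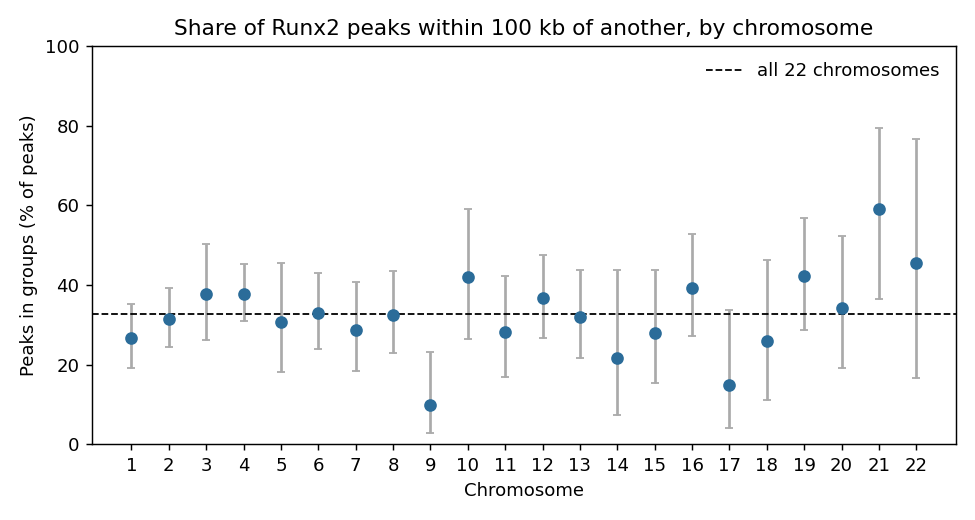
Share of each autosome's Runx2 peaks that lie in groups (vertical axis, %), by chromosome (horizontal axis), with exact 95% binomial intervals. The dashed line is the share over all 22 chromosomes, 32.7%; chromosome 9 lies lowest at 9.76% and chromosome 21 highest at 59.1%.

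The surroundings of the groups were described with the gaps that the rule did not take, all over 100 kb. Of 799 gaps between 2 single peaks, 45.7% were at most 1 Mb (exact 95% interval 42.2 to 49.2%), and their median was 1185 kb. Of 308 gaps between a group and a single peak, 54.2% were at most 1 Mb (48.5 to 59.9%), with a median of 823 kb. Of 46 gaps between 2 groups, 76.1% were at most 1 Mb (61.2 to 87.4%), with a median of 378 kb. Gaps next to groups were thus more often short, most of all those between groups, although the intervals of the first 2 kinds overlapped slightly. Chromosomes with many peaks contribute more gaps next to groups. Within chromosomes, the share of gaps of at most 1 Mb was higher next to a group than between single peaks on 17 of 22 and lower on 5. The 5 were chromosomes 11, 12, 14, 15 and 20. Some of these comparisons rest on few gaps: chromosomes 9, 14, 17 and 18 had 4 each next to a group, and chromosome 22 had 3. On chromosome 3, counted as higher, the shares were 38.1 and 37.5%. Whether regional peak density accounts for the shorter gaps next to groups was not tested.

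Some groups followed each other in runs. Counting groups within 1 Mb of another group, 79 of the 204, or 38.7%, fell into 33 runs. Of the runs, 23 held 2 groups, 7 held 3 and 3 held 4. The 10 runs of 3 or more groups lay on 8 chromosomes and contained 33 groups with 79 peaks; they were picked out after their values were seen. On chromosome 4, 4 pairs lay between 696697 and 1644079, at distances of 251, 300 and 274 kb from each other, and the gaps within them were 74.1, 12.2, 13.3 and 19.0 kb. Of the 9 peaks in that interval, 8 were grouped. On chromosome 13, a group of 3 and 3 pairs lay between 112670866 and 114052858, at distances of 375, 383 and 551 kb, and 9 of the 11 peaks in that interval were grouped. The chromosome 13 run ended with the last peak of its chromosome.

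The third run of 4 groups lay on chromosome 12 from 28152757 to 29155426, where 9 of 10 peaks were grouped. Its groups were 125, 438 and 154 kb apart, so the middle distance was the longest. On chromosome 6, a pair, a group of 4 and a group of 3 followed each other between 43782295 and 44222075. They were only 122 and 150 kb apart, and this was the shortest of the runs of 3 or more, with 9 peaks in 439.8 kb. On chromosome 5, the group of 5 lay between 2 pairs, from 717439 to 1470035. This run held 9 of the 15 grouped peaks of chromosome 5, and the other 6 formed 3 pairs elsewhere. On chromosome 8, 2 pairs preceded the wide group of 4, from 1680960 to 2857028.

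Chromosome 21 had 2 runs of 3 groups, from 35139873 to 36421954 and from 42907600 to 44203182, and these held all 13 of its grouped peaks. Chromosome 2 also had 2 such runs, from 19222349 to 20662931 and from 119222470 to 119735157, with 7 grouped peaks each. In the latter, a group of 3 with gaps of 81.3 and 1.28 kb lay between 2 pairs.

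Grouped peaks made up a larger part of the peaks in the first 5 Mb of chromosomes and near their last peak. On the 17 autosomes with an assembled p arm, the first 5 Mb held 98 peaks, of which 51 were grouped, or 52.0% (exact 95% interval 41.7 to 62.2%). The 51 lay in only 22 groups. Elsewhere on these chromosomes 362 of 1171 were grouped, or 30.9% (28.3 to 33.6%). The difference was not general to all chromosomes: 15 of the 17 had a peak in the first 5 Mb, and the grouped share was higher there than elsewhere on 9. Chromosome 5 had 9 of 11 such peaks in groups, chromosome 4 had 10 of 16, chromosome 8 had 8 of 12 and chromosome 7 had 7 of 9. Chromosomes 4, 5, 7 and 8 thus held most of the 51 grouped peaks. Chromosome 12, by contrast, had 7 such peaks and 0 in groups, and chromosome 19 had 4 and 0.

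At the other end, measured from the last peak of each chromosome, 93 of 193 peaks within 5 Mb were grouped, or 48.2% (41.0 to 55.5%), against 379 of 1250 elsewhere, or 30.3% (27.8 to 33.0%). The share was higher there on 17 of 22 chromosomes. This measure was added after the start regions had been seen. Each of its windows is anchored on a peak, which need not lie at the end of the chromosome. Peak density in these windows was not computed, but they held 193 of the 1443 autosomal peaks in 5 Mb of each chromosome. The first 5 Mb held more peaks per length than the rest, 1.15 per Mb against 0.501 per Mb from there to the last peak of the same chromosomes. Higher density by itself shortens gaps, and its part in the grouped share was not tested for the first 5 Mb or near the last peak. How genes, base composition or the mapping of reads relate to these regions was not tested.

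**Figure D5:**
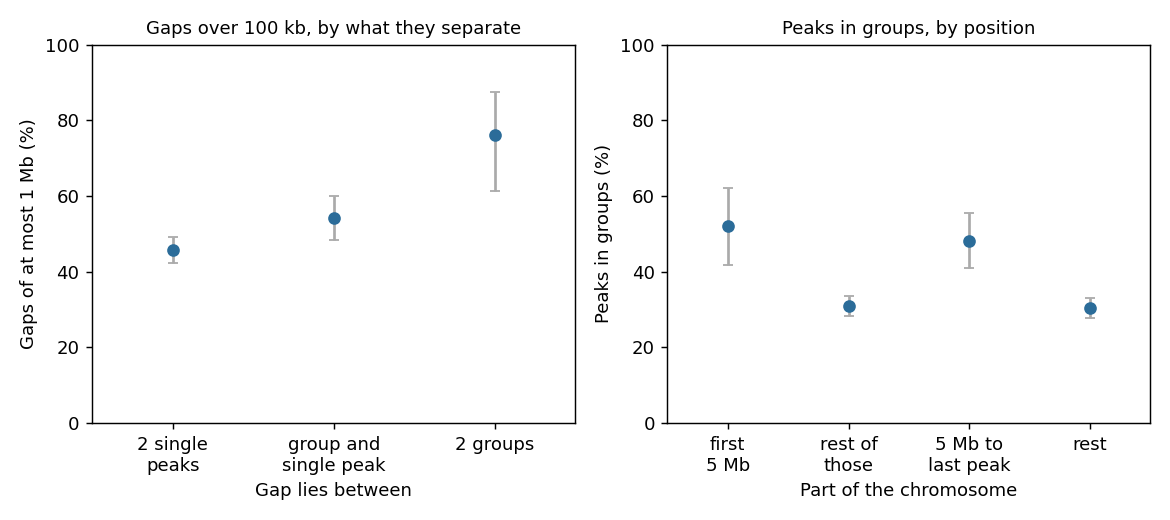
Left, share of gaps over 100 kb that are at most 1 Mb (vertical axis, %), by what the gap lies between: 45.7% for 2 single peaks, 54.2% for a group and a single peak and 76.1% for 2 groups. Right, share of peaks in groups (vertical axis, %) in the first 5 Mb of the 17 autosomes with an assembled p arm (52.0%), the rest of those (30.9%), within 5 Mb of the last peak of all 22 autosomes (48.2%) and the rest (30.3%). Points are shares and bars are exact 95% binomial intervals.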

How the data were processed

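Only the peak list of the Runx2 library was analysed; the input library was not analysed here. The authors deposited a BED list with 6 columns. Its build is hg18 according to the submitters' processing notes. The deposited score is 0 for every peak and each peak is 500 bases wide, so the list gives positions and no strength. The sources used here do not name an aligner or a peak caller, nor a threshold, the role of the input or the depth. Libraries were made by the Illumina protocol, per the labels' protocols.

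Starts were converted to 1-based positions. Chaining was checked on 20 simulated sets, with 0 peaks misplaced. No test was run, because spacing chose the regions and there was 1 library. Intervals are exact 95% binomial (Clopper-Pearson) or order-statistic intervals for medians. Named regions are the groups of 4 or more, the 5 shortest and the widest group of 3, the 5 closest pairs and the pair with the longest gap, and the 3 gaps on either side of the limit; runs of groups were added. The regions and measures were chosen with earlier results of these data known. Alternatives were other chaining distances (50 and 200 kb), centre distances, chromosome X, merging within 1 kb and leaving out chromosomes. Scripts ran on Python 3.11.15 (pandas 2.3.3, numpy 2.4.6, scipy 1.17.1); figures were drawn with matplotlib 3.10.9.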

Additional observations from a re-analysis of the deposited data

How the results depend on the processing

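The chaining distance moved the values most, as it defines the groups. With 50 kb, 310 peaks (21.5%) were grouped, the median gap inside groups was 16.7 kb, the median span was 19.7 kb, and 33.7% of peaks in the first 5 Mb were grouped, against 20.2% elsewhere. With 200 kb, 45.7% of peaks were grouped, the median gap was 63.7 kb and the median span 101.4 kb. At that distance 49.1% of gaps next to a group were at most 1 Mb, against 37.5% between single peaks, and 69.4% of peaks in the first 5 Mb were grouped, against 42.8% elsewhere. Among the alternatives run, 42 values stayed within their interval, or within 1.5 times for counts, and 12 did not. All 12 came from the 50 and 200 kb distances. The values are not all separate alternatives. Leaving out 1 chromosome at a time enters as its lowest and highest value, and the lowest for gaps next to a group repeats the value without chromosome 4. The added share near the last peak is also counted. Leaving out 1 chromosome at a time, which was added after seeing the data, gave 55.0 to 58.3% for gaps next to a group and 48.3 to 56.0% for the first 5 Mb. It does not show what the first 5 Mb would give without chromosomes 4, 5, 7 and 8 together. No stricter threshold could be tried, since the scores do not vary. No paired analysis was possible because only 1 library had a peak list. Depth is unknown, so weaker peaks between the listed ones may be missing, and such peaks would join or enlarge groups.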

Other observations

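Chromosome X was not part of the grouped autosomal peaks and was chained by the same rule. Of its 159 peaks, 72 lay in 30 groups, or 45.3% (exact 95% interval 37.4 to 53.4%), with 20 pairs, 8 groups of 3 and 2 groups of 4. Peak density on X was not compared with that of the autosomes, although higher density by itself shortens gaps. The groups of 4 lay from 39326195 to 39437327 and from 133738497 to 133928466. The median gap inside groups on X was 32.8 kb and the median span of a group was 45.5 kb, against 29.99 kb and 47.5 kb on the autosomes. Of the gaps over 100 kb, 71.4% of those next to a group were at most 1 Mb (56.7 to 83.4%, 49 gaps), against 56.7% of those between single peaks (44.0 to 68.8%, 67 gaps), and these intervals overlapped.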
